A study of Mus musculus with 12 samples.

Results

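The replication-dependent histone genes encode the core histones H2A, H2B, H3 and H4 and the linker histone H1 that package newly made DNA. They were taken as all genes of the deposited count table whose symbol begins with Hist1h, Hist2h, Hist3h or Hist4h. Left out was 1 gene whose symbol marks it as a pseudogene. This gave 68 genes of 40050 in the table, made up of 6 H1, 19 H2A, 18 H2B, 12 H3 and 13 H4 genes. By cluster, 55 carry a Hist1 symbol (chromosome 13), 10 a Hist2 symbol (chromosome 3), 2 a Hist3 symbol (chromosome 11) and 1 a Hist4 symbol (chromosome 6). A further H2A gene, the testis-type Hist1h2aa, was listed in the FPKM table alone and stood at 0 in all 12 libraries.

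Whole colon RNA was sequenced from Glul∆Lyz2 mice, bred to lack Glul, the gene of glutamine synthetase, in myeloid cells, and from their Glul f/f littermates. By the labels' name the deletion follows Lyz2, a gene active in macrophages and neutrophils. Other colon cells of the knockout would then keep Glul, which whole colon RNA does not show by cell type. Each genotype received H2O or DSS (dextran sulfate sodium), which damages the epithelium and brings on colitis. The 4 groups of 3 libraries were f/f on water (WT_H2O 1 to 3), knockout on water (KO_H2O 1 to 3), f/f on DSS (WT_DSS 1, 2 and 4) and knockout on DSS (KO_DSS 1 to 3). The labels give neither age, dose, duration nor whether each library is 1 animal, so p-values measure the spread between these libraries, which may in part be technical.

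Replication-dependent histone genes lie in clusters, mostly lack introns, and are transcribed chiefly in S phase, when new DNA needs new nucleosomes. Their mRNAs end in a conserved stem-loop instead of a poly(A) tail. The stem-loop binding protein SLBP and the U7 small nuclear RNP direct cleavage just after this hairpin, and the mRNAs are degraded when DNA synthesis stops. In the colon, dividing cells sit mainly in the crypts.

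The stem-loop is the sequence that sets these mRNAs apart, so it is shown first for the genes the results turn on. It was read from GENCODE M21 transcripts on GRCm38, 5′ to 3′ in the sense of the mRNA and written as DNA, with the hairpin in capitals. Hist1h1c and Hist1h3d lie on the plus strand at chr13:23739507-23739532 and chr13:23576239-23576264. Hist1h2ac, Hist1h2be and Hist1h3e lie on the minus strand at chr13:23683472-23683497, chr13:23585526-23585551 and chr13:23561898-23561923. Hist1h4h lies on the plus strand at chr13:23531453-23531478 and Hist1h4f on the minus strand at chr13:23551286-23551311.
Hist1h1c: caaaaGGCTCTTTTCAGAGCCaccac
Hist1h2ac: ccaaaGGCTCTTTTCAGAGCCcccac
Hist1h2be: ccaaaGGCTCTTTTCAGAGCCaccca
Hist1h3d: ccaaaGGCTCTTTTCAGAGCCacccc
Hist1h3e: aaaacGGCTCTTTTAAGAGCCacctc
Hist1h4h: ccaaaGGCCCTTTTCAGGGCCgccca
Hist1h4f: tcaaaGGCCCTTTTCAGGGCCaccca

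A hairpin of this kind was found after the stop codon in 46 of the 68 gene models. In 18 further models the transcript was annotated to end within 60 bases of the stop codon. Hist1h2aj and Hist1h2al, kept by their symbols, are annotated as pseudogenes in GENCODE and have no coding model. No hairpin was found in the longer ends of Hist1h2bc and Hist2h2be, both H2B genes. Of the 12 H4 genes with a hairpin, 10 had the GGCCCT stem printed for Hist1h4h and Hist1h4f, while Hist1h4b and Hist1h4j had GGTCCT. The 34 hairpins of H1, H2A, H2B and H3 genes all began with GGCTCT. The search was for a fixed pattern, with C or T alone allowed between the GG and CT that begin the stem. Hairpins of other forms would be missed. Hist1h4h and Hist1h4f have the same hairpin, and only the first was called lower on DSS, as given further on.

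The 66 coding models encode 28 distinct proteins. All 13 H4 genes encode 1 protein and the 12 H3 genes encode 2, while the 18 H2B genes encode 11. Copies are close enough that reads cannot always be told apart: 31 models share over 50% of their 50-base windows with another member. Hist1h2ao and Hist1h2ap, Hist1h2bq and Hist1h2br, Hist1h4m and Hist1h4n, Hist2h2aa1 and Hist2h2aa2, and Hist2h3c1 and Hist2h3c2 have identical coding sequences, and values of these genes are uncertain.

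Promoters differed by type in these gene models. Of the 68 genes, 61 matched a RefSeq promoter on GRCm38, and motifs were searched on both strands in the 250 bases before the start. CCAAT, or ATTGG on the other strand, stood in 100% of the 6 H1, 17 H2A and 16 H2B promoters, in 80% of 10 H3 and in 25% of 12 H4 promoters, against 33.8% of all 32851 promoters. TATAA, or TTATA, which can overlap each other, stood in 63.9% of the members' promoters and in 22.8% of all. ATTTGCAT, the octamer, or ATGCAAAT, stood in 35.3% of H2A and 37.5% of H2B promoters, in no H1, H3 or H4 promoter, and in 1.6% of all. The 120 bases before the start are printed 5′ to 3′ on the gene's strand for the H2A and H3 genes with the smallest p, and for a pair of H4 genes of which only the first was called lower. CCAAT and TATAA matches are in capitals. They lie at chr13:23683960-23684079 (minus) for Hist1h2ac, chr13:23562386-23562505 (minus) for Hist1h3e, chr13:23530924-23531043 (plus) for Hist1h4h and chr13:23551669-23551788 (minus) for Hist1h4f.
Hist1h2ac: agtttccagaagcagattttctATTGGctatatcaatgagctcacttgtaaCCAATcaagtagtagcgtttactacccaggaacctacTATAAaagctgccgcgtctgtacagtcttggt
Hist1h3e: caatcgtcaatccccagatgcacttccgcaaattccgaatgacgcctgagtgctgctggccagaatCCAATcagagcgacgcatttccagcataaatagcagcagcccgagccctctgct
Hist1h4h: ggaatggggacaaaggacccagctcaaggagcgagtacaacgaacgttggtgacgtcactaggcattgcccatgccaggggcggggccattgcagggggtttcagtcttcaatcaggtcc
Hist1h4f: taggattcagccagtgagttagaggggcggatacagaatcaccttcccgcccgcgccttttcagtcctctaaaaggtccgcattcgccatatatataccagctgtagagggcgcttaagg

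Libraries held 14.7 to 41.2 M reads. Colon epithelial genes were abundant in each library, with 288672 to 1166740 normalized counts summed over 10 markers. Glul itself was lower in the knockout by a log2 difference of -0.99 ± 0.40 over both treatments, with an adjusted p of 0.953 in limma, so the call did not pass. The crypt stem cell list fell in 4 of its 5 tested genes on DSS, and all 4 tested neutrophil markers rose.

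Histone genes took 0.184%, 0.185% and 0.148% of reads in WT_H2O and 0.178%, 0.259% and 0.110% in KO_H2O. They took 0.147%, 0.0651% and 0.0462% in WT_DSS 1, 2 and 4, and 0.116%, 0.111% and 0.107% in KO_DSS. WT_DSS 1 stood within the range of the water libraries, KO_DSS 1 and KO_DSS 2 at its lower end, and the other 3 DSS libraries below it. A normalized count is the read count divided by the authors' size factor of the library. On a scale per length, the summed FPKM of all 68 genes on water was 2195 ± 337 in f/f and 2327 ± 909 in the knockout (SD, n = 3 each). On DSS it was 1066 ± 722 in f/f and 1406 ± 62.5 in the knockout (SD, n = 3 each). In whole tissue, fewer dividing cells and less histone mRNA per cell cannot be told apart.

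DSS was compared with water over both genotypes, with 63 of the 68 genes passing the filter of a mean normalized count of 10. Hist1h1t, Hist1h2al, Hist1h2ba, Hist2h2bb and Hist2h3b did not pass it. The changes are differences of log2(normalized count + 1), DSS minus water, tested with limma over 23263 genes with Benjamini-Hochberg adjustment and called at an adjusted p under 0.05. Of the 63 genes, 38 were lower on DSS and none was higher, while 14.6% of all tested genes were lower and 13% higher. The median change was -1.28, against -0.07 over all tested genes. The gene at the median was Hist2h2aa2, which passed the filter through reads in KO_H2O 1 alone. In 19 genes all 6 DSS libraries lay below all 6 water libraries, against 6.58% of all tested genes. Without KO_H2O 1 the count of lower genes was 24, without WT_H2O 1 or WT_H2O 2 it was 25, and it reached 49 without WT_DSS 1. A total of 24 genes were called whichever single library was left out. Under upper-quartile scaling 34 members were lower. That scaling moved the median of all tested genes to 0.06, with 3933 genes higher and 2613 lower against 3020 and 3399 as scaled by the authors.

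**Figure D1:**
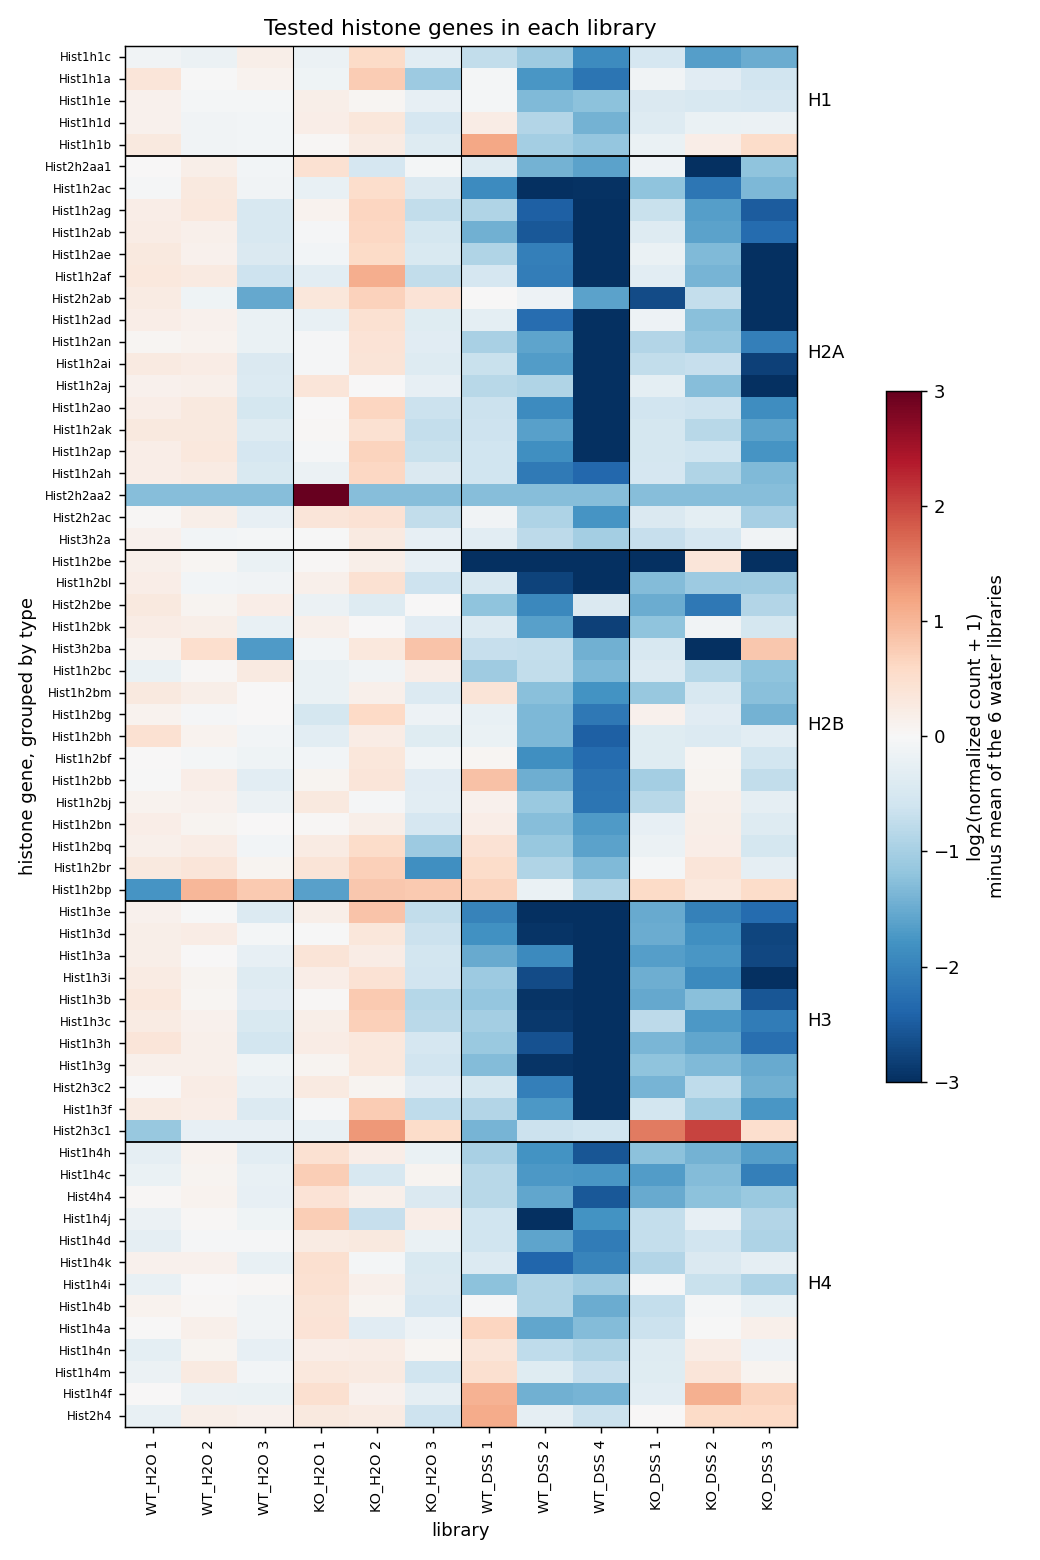
Each row is 1 of the 63 tested histone genes, grouped by type and ordered by its change, and each column 1 library. Colour is log2(normalized count + 1) minus the mean of the 6 water libraries, cut at -3 and 3. Most rows are blue in WT_DSS 2 and 4, while WT_DSS 1 is paler, and H3 rows other than Hist2h3c1 are blue in all 6 DSS libraries.

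The types differed in how many members were called. Of 11 tested H3 genes, 10 were lower, with a median change of -2.08. Of 18 H2A genes, 14 were lower (median -1.69), and of 13 H4 genes, 7 were lower (median -0.80). The 14 H2A genes include Hist1h2aj, annotated as a pseudogene. Of 16 H2B genes, 5 were lower (median -0.87), and of 5 H1 genes, 2 were lower (median -0.67). Differences between types were not tested.

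**Figure D2:**
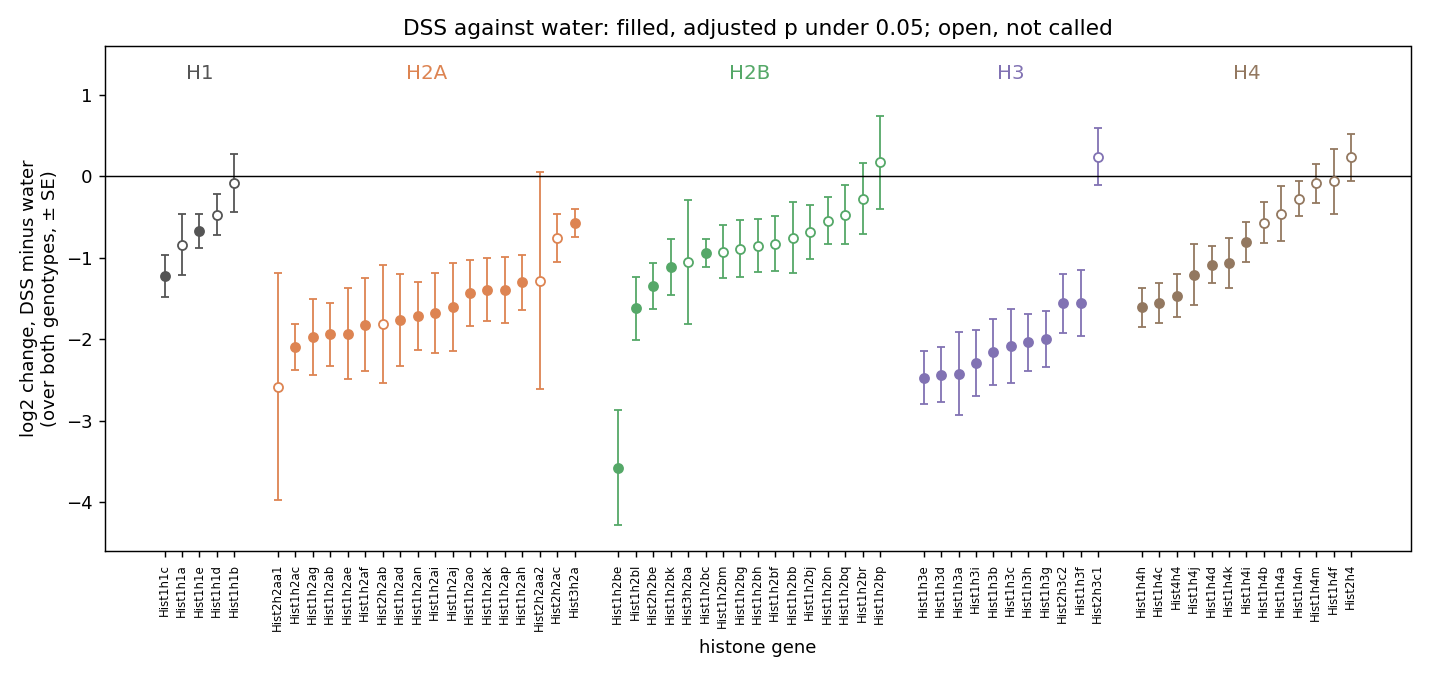
Points are log2 changes, DSS minus water over both genotypes, with SE, for the 63 tested genes by type. Filled points passed an adjusted p of 0.05. Of the H3 genes only Hist2h3c1 lies above 0, and the H4 genes run from -1.61 to 0.23.

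H3, with H4, forms the tetramer at the centre of the nucleosome. Hist1h3e had the highest mean FPKM of the H3 genes, 39.3 ± 36.3 (SD, n = 12). Its normalized counts were 1591, 1454 and 1098 in WT_H2O and 1646, 2654 and 878 in KO_H2O. On DSS they were 365, 154 and 109 in f/f libraries 1, 2 and 4, and 510, 359 and 296 in the knockout. Every DSS library lay below every water library, with KO_H2O 2 the highest and WT_DSS 4 the lowest. The log2 change was -2.47 ± 0.33 (SE; limma adjusted p = 0.000905).

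Hist1h3d had 751, 777 and 636 on water in f/f and 666, 845 and 423 in the knockout. On DSS it had 189, 86.4 and 46.9 in f/f libraries 1, 2 and 4, and 239, 186 and 98.6 in the knockout. These groups did not overlap by treatment either, and the change was -2.44 ± 0.34 (limma adjusted p = 0.00104). Hist1h3h had 465 to 885 normalized counts on water and 70 to 315 on DSS, a change of -2.03 ± 0.35 (limma adjusted p = 0.00241). In 8 of the 11 tested H3 genes the 6 DSS libraries lay below the 6 water libraries. Hist2h3c1, singled out after its values were seen, was the H3 gene that was not called, with a change of 0.24 ± 0.35 (limma adjusted p = 0.636). It shares its coding sequence with Hist2h3c2, which was called lower at -1.56 ± 0.36 (limma adjusted p = 0.00963).

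H2A pairs with H2B in the dimers that flank the tetramer. Hist1h2ac had the smallest p of the H2A genes, with 344, 433 and 328 normalized counts in WT_H2O and 303, 515 and 265 in KO_H2O. It had 95.1, 44.0 and 44.5 in WT_DSS 1, 2 and 4, and 153, 78.8 and 139 in KO_DSS. Each DSS library lay below each water library, and the change was -2.09 ± 0.28 (limma adjusted p = 0.000905), or -1.41 ± 0.22 on the FPKM table. That table is on the log2(FPKM + 1) scale, and the mean FPKM was 5.15 on water and 1.32 on DSS.

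Hist1h2ab had 385 to 853 on water and 54.4 to 423 on DSS, with KO_DSS 1 reaching into the water range, a change of -1.94 ± 0.39 (limma adjusted p = 0.0047). Hist1h2ag had 172 to 448 on water and 21.4 to 182 on DSS, a change of -1.97 ± 0.47 (limma adjusted p = 0.0106). Hist2h2aa1 had the highest mean FPKM of the H2A genes, 70.6 ± 35.8 (SD, n = 12), and was not called, at -2.58 ± 1.39 (limma adjusted p = 0.185). It was at 0 in KO_DSS 2 and between 526 and 2213 in the other 11 libraries. Without KO_DSS 2 the gene was called, at -0.92 ± 0.28 (limma adjusted p = 0.0402). Its copy Hist2h2aa2 was read in KO_H2O 1 alone, at 202 normalized counts. How the authors' counting shared reads between these copies is not given in the sources used here.

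H2B genes were less evenly lower. In the model of Hist1h2bc, which runs well past the usual end, no hairpin was found. Hist1h2bc had 1526, 1778 and 2105 normalized counts in WT_H2O and 1517, 1617 and 2006 in KO_H2O. It had 829, 1049.6 and 680 in WT_DSS 1, 2 and 4, and 1316, 957 and 754 in KO_DSS. The treatments did not overlap, and the change was -0.94 ± 0.18 (limma adjusted p = 0.00367). Hist2h2be, the other gene in whose model none was found, had 184 to 295 on water and 54.4 to 179.5 on DSS, a change of -1.34 ± 0.28 (limma adjusted p = 0.00624).

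Hist1h2be had 413, 384 and 323 normalized counts in WT_H2O and 380, 416 and 313 in KO_H2O. It had 8.41, 24.9 and 20.6 in WT_DSS 1, 2 and 4, and 29.0, 477 and 10.96 in KO_DSS. KO_DSS 2 alone was above every water library, and the other 5 DSS libraries were below all of them. The change was -3.57 ± 0.71 (limma adjusted p = 0.00458), and it was called under all 21 alternatives. Its size moved, to -4.35 without KO_DSS 2 and to -1.42 ± 0.31 on the FPKM table. The FPKM table is on the log2(FPKM + 1) scale, which makes changes of low genes smaller. The gene model spans 37455 bases and overlaps Hist1h1e on the same strand, and how reads were assigned there is not given in the sources used here. Hist1h2bn, with the highest mean FPKM of the H2B genes, 55.3 ± 19.3 (SD, n = 12), was not called at -0.54 ± 0.29 (limma adjusted p = 0.178). Its counts were 481 to 785 on water and 207 to 781 on DSS, with WT_DSS 1 and all 3 KO_DSS libraries inside the water range. Without WT_DSS 1 it was called, at -0.83 ± 0.19 (limma adjusted p = 0.0128).

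**Figure D3:**
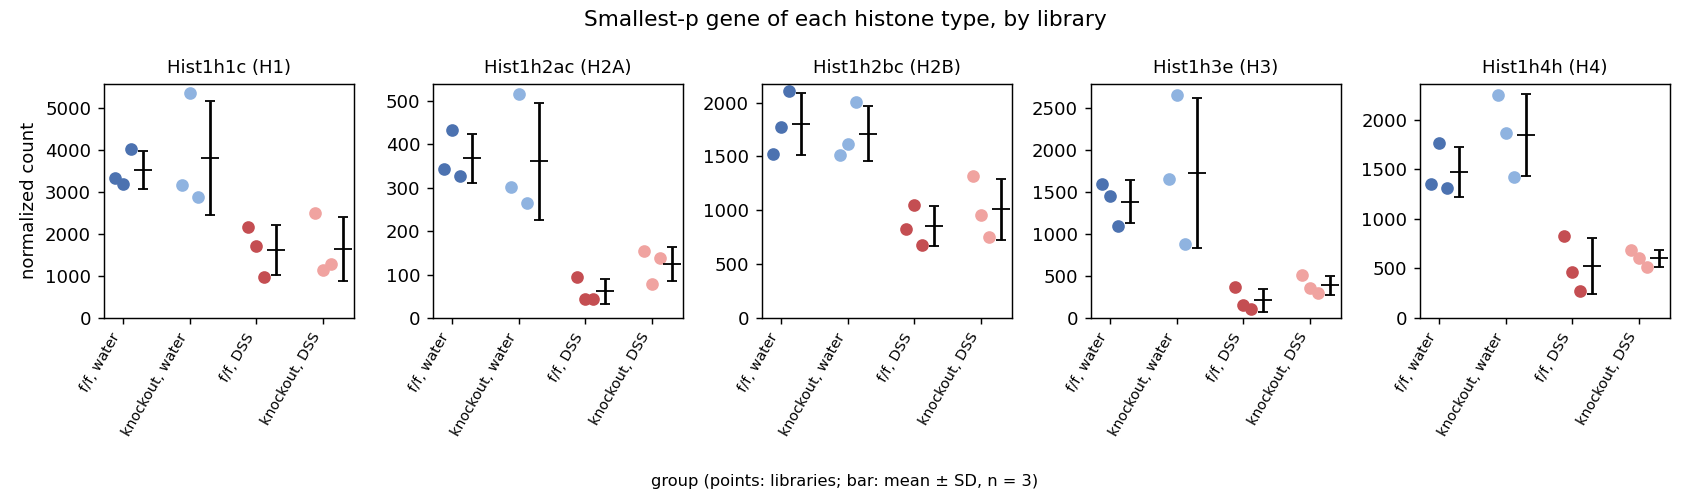
Normalized counts per library for the gene with the smallest p in each histone type, on axes that start at 0. Points are libraries and the bars beside them give mean and SD (n = 3). In all 5 genes every DSS library is below every water library.

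H4 genes all encode the same protein, and their changes ran from -1.61 to 0.23. Hist1h4h had 1347, 1762 and 1310 normalized counts in WT_H2O and 2250, 1865 and 1420 in KO_H2O. It had 826, 467 and 276 in WT_DSS 1, 2 and 4, and 689, 607 and 518 in KO_DSS, all below the water libraries. The change was -1.61 ± 0.24 (limma adjusted p = 0.00143).

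Hist1h4c had 767 to 1790 on water and 258 to 599 on DSS, a change of -1.55 ± 0.24 (limma adjusted p = 0.00167). Hist4h4, the single gene of its cluster, had 668 to 1195 on water and 155 to 506 on DSS, a change of -1.47 ± 0.26 (limma adjusted p = 0.00302). Hist1h4f had the highest mean FPKM of all members, 93.8 ± 47.9 (SD, n = 12), and was not called.

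Counts of Hist1h4f were 947, 835 and 826 in WT_H2O and 1319, 1035 and 784 in KO_H2O. They were 1938, 345 and 357 in WT_DSS 1, 2 and 4, and 758, 1966 and 1507 in KO_DSS. WT_DSS 1, KO_DSS 2 and KO_DSS 3 were above every water library, and the other 3 DSS libraries were below all of them. The change was -0.06 ± 0.40 (limma adjusted p = 0.923), and its sign differed between settings.

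H1 genes encode linker histones, which bind the DNA between nucleosomes. Hist1h1c, the H1 gene with the highest mean FPKM at 59.5 ± 32.5 (SD, n = 12), had 3335, 3190 and 4039 normalized counts in WT_H2O and 3169, 5365 and 2895 in KO_H2O. It had 2164, 1718 and 975 in WT_DSS 1, 2 and 4, and 2515, 1136 and 1277 in KO_DSS, all below the water libraries. The change was -1.22 ± 0.26 (limma adjusted p = 0.00619). Hist1h1e had 906 to 1211 on water and 428 to 1034 on DSS, a change of -0.67 ± 0.21 (limma adjusted p = 0.0329). Its call was lost in 9 of the 12 fits that left out 1 library, with adjusted p up to 0.0787. The testis-type H1 gene Hist1h1t and the testis-type H2B gene Hist1h2ba were below the filter, with at most 10.2 and 11.5 normalized counts in a library.

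By cluster, 34 of 52 tested Hist1 genes were lower (median -1.26), 2 of 8 Hist2 genes (median -1.31), 1 of 2 Hist3 genes and the Hist4 gene. Changes in the Hist2 cluster ran from -2.58, in Hist2h2aa1 with its single library at 0, to 0.24. The tested Hist2 genes include Hist2h2aa2, read in a single library. Hist3h2a, an H2A gene with the highest mean FPKM of its cluster, had 471 to 675 on water and 276 to 518 on DSS, a change of -0.57 ± 0.18 (limma adjusted p = 0.0318). That call, too, was lost in 9 of the 12 fits that left out 1 library, with adjusted p up to 0.0756.

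Many H2A and H2B genes lie head to head, so that 1 stretch of DNA lies between both starts. In 12 such pairs with starts up to 500 bases apart (175 to 301 bases), both genes were tested. Hist1h2ac and Hist1h2bc are 250 bases apart, and the promoter printed for Hist1h2ac lies in that gap. The H2A change was the more negative in 11 of the 12 pairs, with a median of -1.64 against -0.86 for H2B. The H2A gene was called lower in 11 pairs, among them that of Hist1h2aj, annotated as a pseudogene, and the H2B gene in 4. The exception was Hist2h2ac at -0.75 ± 0.30 with Hist2h2be at -1.34 ± 0.28. At the other end, Hist1h2an was at -1.71 ± 0.42 and its partner Hist1h2bp at 0.17 ± 0.57. In GENCODE each of these H2A gene models overlapped another gene model, on the same strand only for Hist1h2ac, while no H2B partner's did. How reads were assigned there is not given in the sources used here. The difference within pairs, and the part of these overlaps in it, was not tested.

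**Figure D4:**
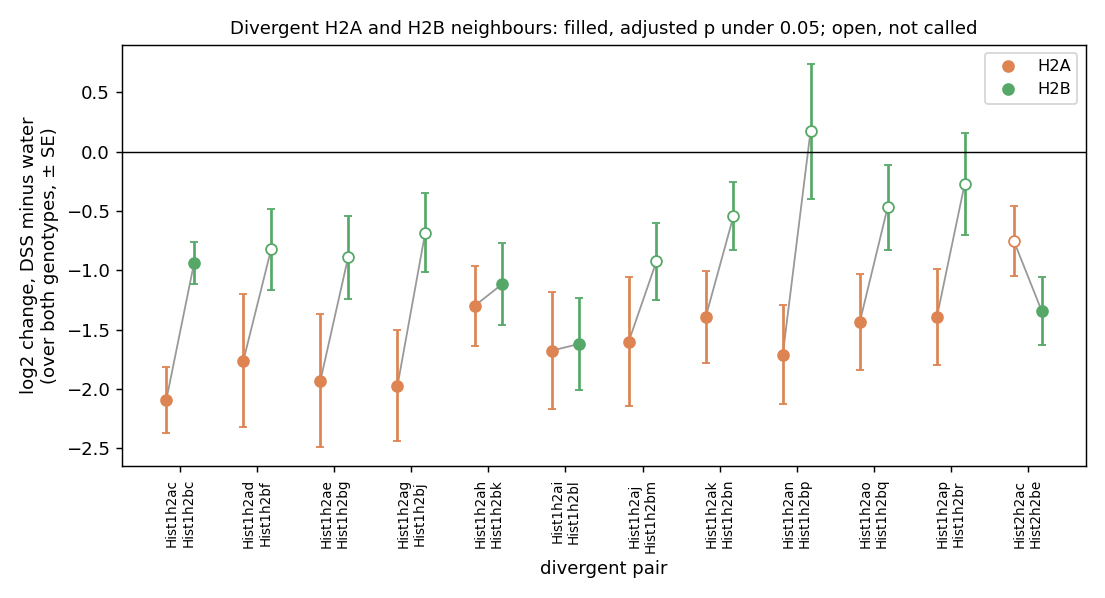
Log2 changes, DSS minus water over both genotypes, with SE, for the 12 divergent pairs of an H2A and an H2B gene. Lines join partners, and filled points passed an adjusted p of 0.05. The H2A point is lower in 11 pairs, and Hist2h2ac with Hist2h2be is the pair in which it is not. Each H2A gene model overlaps another gene model, and no H2B partner's does.

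The make-up of the histone mRNA pool was then described on the FPKM scale. H3 genes held 20.95%, 19.1% and 16.8% of the summed FPKM in WT_H2O and 18.6%, 22.2% and 16.0% in KO_H2O. They held 9.49%, 9.13% and 6.61% in WT_DSS 1, 2 and 4, and 12.8%, 9.82% and 7.41% in KO_DSS. The 2 treatments did not overlap, including WT_DSS 1, whose total was within the water range. H4 genes held 26.4% to 36.0% on water and 30.3% to 47.1% on DSS, and H2A genes 20.1% to 24.2% and 12.5% to 25.8%, with overlap in both cases. Over the 62 tested coding genes, the GC content of the coding sequence and the change had a Spearman coefficient of -0.51, a description across genes that share libraries and sequence. Median GC was 59.4% in H1, 69.0% in H2A, 62.7% in H2B, 66.9% in H3 and 65.1% in H4 genes, so GC and type moved together, and the part of GC in the result was not tested.

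**Figure D5:**
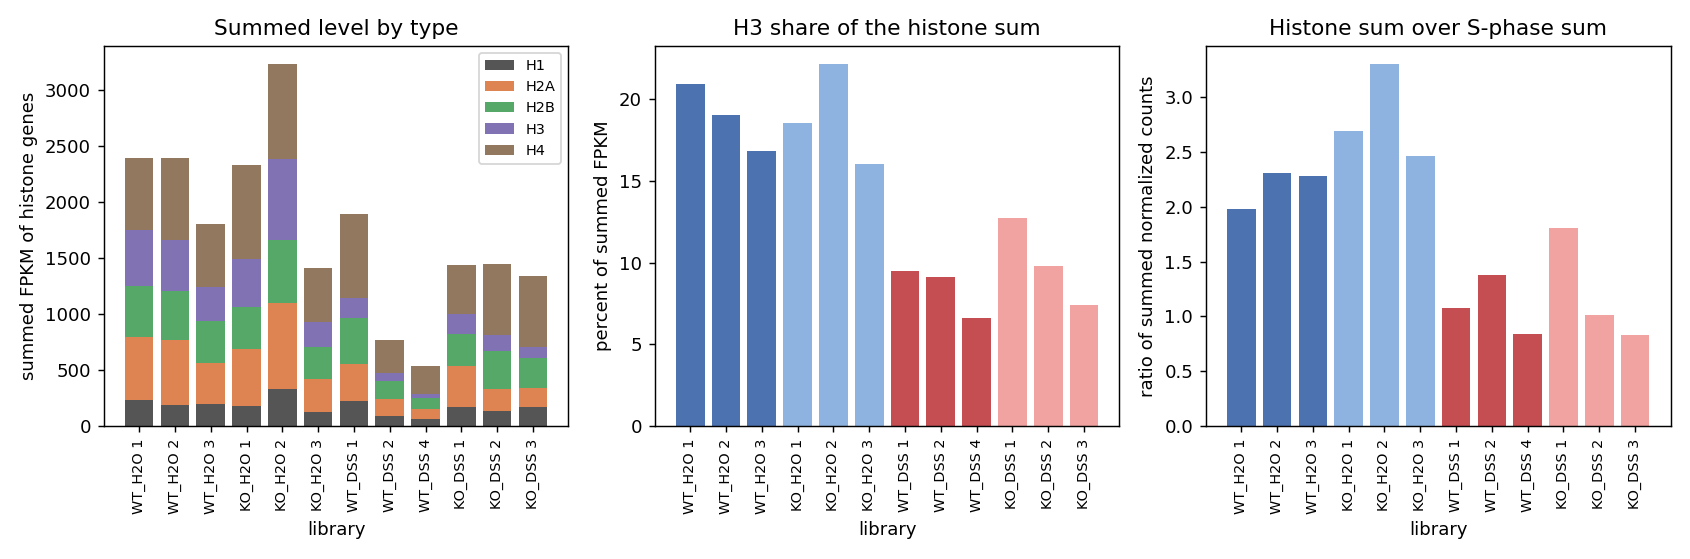
Left, FPKM summed over histone genes by type in each library; middle, the H3 share of that sum in percent; right, the histone sum divided by the sum of 32 S-phase genes, in normalized counts. Axes start at 0. The H3 share is 16.0% to 22.2% on water and 6.61% to 12.8% on DSS.

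Within f/f littermates, 15 genes were lower on DSS and none was higher, where 2.58% of all tested genes were lower and 2.16% higher. The median change was -1.49. Of the 15, 8 were H3 genes, 3 were H4, and 2 each were H2A and H2B. Within the knockout, 10 genes were lower and none was higher, where 5.71% of all tested genes were lower and 5% higher, and the median was -0.96. A total of 7 genes were called in both genotypes, among them Hist1h2ac, Hist1h3d, Hist1h3e, Hist1h3h, Hist1h4h and Hist4h4.

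Of the 8 genes called in f/f only, the 3 with the smallest p were Hist1h3g, Hist1h2be and Hist1h2ab. Hist1h3g changed by -2.70 ± 0.49 in f/f (limma adjusted p = 0.0202) and by -1.29 ± 0.49 in the knockout (limma adjusted p = 0.104), with an interaction of 1.41 ± 0.69 that did not pass. Its f/f call was kept in 10 of the 12 fits that left out 1 library, against 5 for Hist1h2be and 6 for Hist1h2ab. The 3 called in the knockout only were Hist1h4c, Hist2h2ab and Hist1h1c. Hist1h4c changed by -1.78 ± 0.34 in the knockout (limma adjusted p = 0.0138) and by -1.32 ± 0.34 in f/f (limma adjusted p = 0.0508), and its knockout call was kept in 10 of those 12 fits. Hist2h2ab changed by -3.52 ± 1.02 in the knockout (limma adjusted p = 0.0483), where 7.26, 31.3 and 0 normalized counts stood in KO_DSS. That call was lost in 11 of the 12 fits, and the change was -2.18 without KO_DSS 3 and -4.69 without KO_DSS 2, the 1 fit that kept it. Hist1h1c changed by -1.25 ± 0.36 there (limma adjusted p = 0.0486) and by -1.19 ± 0.36 in f/f (limma adjusted p = 0.0778), with the knockout call kept in 3 of the 12.

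These counts rested on single libraries. In f/f no gene was called without WT_H2O 1 or without WT_H2O 2, 4 were called without WT_H2O 3, 5 without WT_DSS 2, 6 without WT_DSS 4 and 8 without KO_H2O 3, which enters through the shared spread. In the knockout no gene was called without KO_H2O 1, 1 without KO_H2O 3, 3 without KO_H2O 2 or KO_DSS 2, 5 without KO_DSS 3 or WT_H2O 1, and 6 without WT_H2O 2. The f/f median was -1.05 to -2.01 and the knockout median -0.66 to -1.24 over all settings.

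WT_DSS 1 exceeded both WT_DSS 2 and WT_DSS 4 in 57 of the 63 genes, against 33.5% of all tested genes. It was above the lowest water library in 31 genes (69.3% of all tested genes), WT_DSS 2 in 7 (71.4%) and WT_DSS 4 in 4 (74.5%). KO_DSS 1 was above it in 26 genes (73% of all), KO_DSS 2 in 26 (67.7%) and KO_DSS 3 in 19 (67.9%). WT_DSS 1 held 34876 normalized counts summed over the S-phase list, against 12005 in WT_DSS 2 and 13848 in WT_DSS 4. KO_DSS 1, 2 and 3 held 15967, 29543 and 29591, with histone sums of 28908, 29897 and 24618 normalized counts. In the knockout the histone sum thus did not rank with the S-phase sum. The part of the S-phase level of WT_DSS 1 in the result was not tested.

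Knockout was compared with f/f on each treatment and over both, to ask whether losing Glul in myeloid cells moved histone mRNA. No member was called in limma in any genotype comparison or in the interaction, where 0% of all tested genes were called. The smallest adjusted p of a member was 0.762 on DSS, 0.953 over both treatments and 0.9998 in the interaction (limma). The DSS change was less negative or more positive in the knockout in 56 of 63 genes, against 47.5% of all tested genes. The median interaction was 0.65 and ran from 0.20 to 1.25 over the settings. This lean was not particular to histone genes. Of the lists taken up below, the median interaction was 0.87 over 32 S-phase genes and 0.40 over 10 mitosis genes. It was 0.40 over 18 chaperone genes, 0.26 over 18 transcription and 3′ processing genes and 0.11 over 11 replication-independent variants. WT_DSS 4 was the lowest of the 12 libraries in 44 of the 63 genes, against 7.01% of all tested genes. Hist2h3c1, named after its values were seen, was the 1 tested member with all KO_DSS libraries above all WT_DSS libraries, at 318, 440 and 152 against 40.4, 68.1 and 70.0 normalized counts. This was a log2 difference of 2.24 ± 0.49 (limma adjusted p = 0.762), and 2.99% of all tested genes showed the same separation. The knockout libraries of Hist2h3c1 lay above the f/f libraries on water too, at 91.0, 267 and 157 against 48.1, 90.8 and 89.8.

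Other genes of histone supply and of cell division were counted beside the members. Of 32 genes of S phase and DNA replication, none was higher and 2 were lower on DSS, with a median change of 0.23. The median was -0.29 in f/f, with no gene called, and 0.57 in the knockout, with 1 lower. Those lower over both genotypes were Pold1, the catalytic subunit of DNA polymerase delta (-1.30 ± 0.24; limma adjusted p = 0.00361), and Tk1, thymidine kinase (-0.66 ± 0.19; limma adjusted p = 0.027). None of 10 mitosis genes was called, and their median was 0.42 (0.15 in f/f and 0.69 in the knockout), with Mki67 at 0.94 ± 0.37 (limma adjusted p = 0.0755). The histone sum divided by the S-phase sum was 1.98 to 3.30 in the water libraries and 0.832 to 1.81 in the DSS libraries, without overlap. By type, this ratio was without overlap for H2B and H3 genes. For H1, H2A and H4 genes KO_DSS 1, at 0.400, 0.3434 and 0.475, reached above the lowest water library, at 0.381, 0.3433 and 0.466.

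Of 18 genes for histone gene transcription and mRNA 3′ processing, 6 rose and 3 fell. Zcchc6, a uridylyltransferase that marks mRNA for decay, rose by 0.87 ± 0.15 (limma adjusted p = 0.00232), and Cpsf2, of the cleavage complex, by 0.65 ± 0.19 (limma adjusted p = 0.0252). Sympk, the scaffold of that complex, changed by -1.02 ± 0.18 (limma adjusted p = 0.00271), and Lsm11, a U7 protein, by -0.93 ± 0.19 (limma adjusted p = 0.00516). Of 18 chaperone genes, 3 rose and 1 fell. The risers were Supt16, of the FACT complex, at 0.87 ± 0.15, Nasp, which binds H3 and H4, at 1.14 ± 0.31, and Atrx, which deposits H3.3, at 0.59 ± 0.18. Tonsl, which binds H3 and H4 at replication forks, changed by -0.997 ± 0.24 (limma adjusted p = 0.0112).

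Of 11 replication-independent variant genes, which make polyadenylated mRNA, 3 fell. H2afj changed by -1.22 ± 0.20 (limma adjusted p = 0.00204), H2afv by -0.88 ± 0.18 (limma adjusted p = 0.00533) and H2afx by -0.94 ± 0.26 (limma adjusted p = 0.0221). The median of the list was -0.04. H2afx can make both kinds of mRNA end.

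Small RNAs that carry no poly(A) tail were also mostly lower on DSS. Of 11 tested, 10 were lower, with a median of -1.92, and none was higher. Within groups their summed normalized counts did not always follow the histone sum. The 2 sums ranked the libraries alike in WT_H2O, and in reverse in KO_H2O and KO_DSS. In WT_DSS, library 1 had the highest histone sum and library 2 the highest small RNA sum. Rpph1, the RNA of RNase P, changed by -1.92 ± 0.26 (limma adjusted p = 0.000911), Rmrp, of RNase MRP, by -2.18 ± 0.29 (limma adjusted p = 0.000959), Scarna2 by -1.70 ± 0.25 (limma adjusted p = 0.00121) and Rn7sk by -1.36 ± 0.20 (limma adjusted p = 0.00142). Whether libraries were made from poly(A)-selected or rRNA-depleted RNA is not given in the sources used here, and the part of RNA without poly(A) tails in the result was not tested.

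Cell type markers also moved. Of 5 crypt stem cell genes 4 fell, among them Ephb3, a receptor that positions crypt cells (-1.78 ± 0.21; limma adjusted p = 0.000678), and Axin2, a Wnt target (-1.81 ± 0.29; limma adjusted p = 0.00172). The 5 genes summed to 1796 to 3462 normalized counts on water and 480 to 1618 on DSS. All 4 tested neutrophil markers rose, and the 6 listed markers summed to 9.89 to 382 on water and 222 to 8398 on DSS. Of 10 epithelial markers, 2 rose and 3 fell, and none of the B cell, T cell, macrophage, smooth muscle or erythroid markers was called. The part of these cell types in the histone changes was not tested.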

How the data were processed

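RNA from 12 mouse colon samples was analysed in 4 groups of 3, set by the genotype and treatment labels. The values deposited by the authors are log2 normalized counts, log2(count divided by a library factor, plus 1). A further table holds log2 FPKM, read here as log2(FPKM + 1). The submitters' processing notes name STAR and GRCm38/mm10, while counter, strand setting and annotation are not stated in these sources. Whole reads were read back from the log2 values, with 100% whole within 0.01 for counts up to 1000, and gave depths of 14.7 to 41.2 M reads. A second FPKM file had 4 columns without a matching label, left unused.

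Genes reaching a mean normalized count of 10 were tested on log2(normalized count + 1). On that scale changes of low genes come out too small, and so they do on log2(FPKM + 1). limma 3.58.1 in R 4.3.3 fitted the 4 group means with a mean-variance trend (8 residual degrees of freedom), and p was adjusted by Benjamini-Hochberg over all tested genes in each comparison. The fit was tested on simulated data. Hairpins and gene models came from GENCODE M21 and promoters from RefSeq, both on GRCm38.

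The members and lists were chosen with earlier results of these data known. Named were the 3 called genes with the smallest p of each type, the gene of highest FPKM per type and cluster, genes called in 1 genotype (3 smallest p), testis-type genes and up to 4 genes per list. Alternatives were other filters, pseudocounts, scalings, FPKM, voom, sample weights, a replicate block and leaving out each library. Precision is limited by 3 libraries per group.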

Additional observations from a re-analysis of the deposited data

How the results depend on the processing

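No histone gene was called higher under any of the 21 alternatives, and none was called in a genotype comparison or the interaction. Over both genotypes the count of lower genes was 24 to 49 when 1 library was left out. In f/f the count was 9 without the filter, 42 under sample weights and 0 to 20 when 1 library was left out. In the knockout it was 6 with no filter, with upper-quartile scaling or with FPKM, 5 with total-read scaling, and 0 to 14 with 1 library left out. Hist1h4f over both genotypes, not called, reversed to 0.07 under upper-quartile scaling, 0.12 under the replicate block, and ran from -0.47 to 0.15 when 1 library was left out. The causes were not tested.

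No clear pairing of the libraries by replicate number was seen. Of 15 same-numbered pairs, 3 correlated over 0.1 in their deviations from the group means (-0.18 to 0.24). Of 12 libraries, 2 correlated best with their own number. The labels do not say what the numbers stand for, and with 3 libraries per group a weak pairing could be missed. With the replicate block 31 genes were lower over both genotypes, 2 in f/f and 10 in the knockout. Of the 68 genes, 5 were below the filter and were not tested.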
